A study of Mus musculus with 15 samples.

Results

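The libraries described here are the 10 of the 15 in the series that came from wild-type (WT) or VLDLR-deficient mice, and they were chosen by genotype and by the form of their sample code. The codes placed a digit either before or after the letter B, and the sources used here do not say what that form stands for. The WT libraries numbered 3 with the digit before B and 2 with it after B, and the VLDLR-/- libraries (VLDLR_KO) numbered 2 and 3. The quantity described is the VLDLR_KO against WT difference in the after-B libraries minus the same difference in the before-B libraries. A positive value means that the VLDLR effect was higher in the after-B libraries, and in the same model it equals the after-B against before-B difference of VLDLR_KO minus that of WT.

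All groups consisted of macrophages from the bone of C57BL6J mice that had been kept for 14 days with M-CSF at 20 ng/ml, on which macrophages depend for growth and survival. Another genotype, ROBO4-/- (ROBO4_KO, 2 before-B and 3 after-B libraries), entered the model and is set beside the others. The libraries were made from total RNA with a SMARTER mRNA-Seq kit, and no further treatment was given in the labels. The labels name neither the animals nor the cultures behind a library, so the p-values measure the spread between these libraries, which may be technical.

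The VLDL receptor is a lipoprotein receptor of the cell surface. It binds lipoproteins that carry apolipoprotein E, takes them up, and also serves as a receptor for the signalling protein reelin. Macrophages answer bacterial products and tissue damage through NF-kappaB, which switches on chemokines, cytokines and its own inhibitor, and they answer many stimuli within minutes through immediate-early genes such as Fos. Sterol supply in these cells is set by SREBP transcription factors, which raise the enzymes of cholesterol and fatty acid synthesis when sterols are scarce.

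The libraries held 18132866 to 19005966 estimated counts, and 12198 genes passed the filter on low counts. Vldlr itself was barely counted. It had 36, 10 and 14 counts in the WT before-B libraries, 5 and 9 in the WT after-B libraries, 2 and 5 in the VLDLR_KO before-B libraries and 1, 9 and 9 in the VLDLR_KO after-B libraries. The Vldlr count thus separated the genotypes in the before-B libraries, at low counts, but not in the after-B libraries, where they overlapped. A knockout allele can still give reads from the remaining gene. Macrophage genes were abundant everywhere, with Csf1r, the M-CSF receptor, at 1130 to 2500 CPM (counts scaled to a common library total) in the 10 libraries.

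2 features set some libraries apart. In VLDLR_KO before-B library 3 genes were split by length into 5 classes of equal size, and the median log2 level of the shortest class was 0.55 above the mean of the 15 libraries and that of the longest -0.51, a difference of -1.06, whereas the difference was -0.25 to 0.23 in the other 14. The 4 Y-linked genes counted (Ddx3y, Eif2s3y, Kdm5d and Uty) had at most 1 count each in WT before-B library 1 and VLDLR_KO after-B libraries 1 and 2, and were counted in the other 12 libraries. Results are therefore given with and without these libraries where they change. Without the libraries that lacked Y-linked counts, the VLDLR_KO after-B group consists of library 3 alone. Whether a call lost there reflects these libraries or the smaller group cannot be told apart. The same holds where 1 library is left out of a group of 2.

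**Figure D1:**
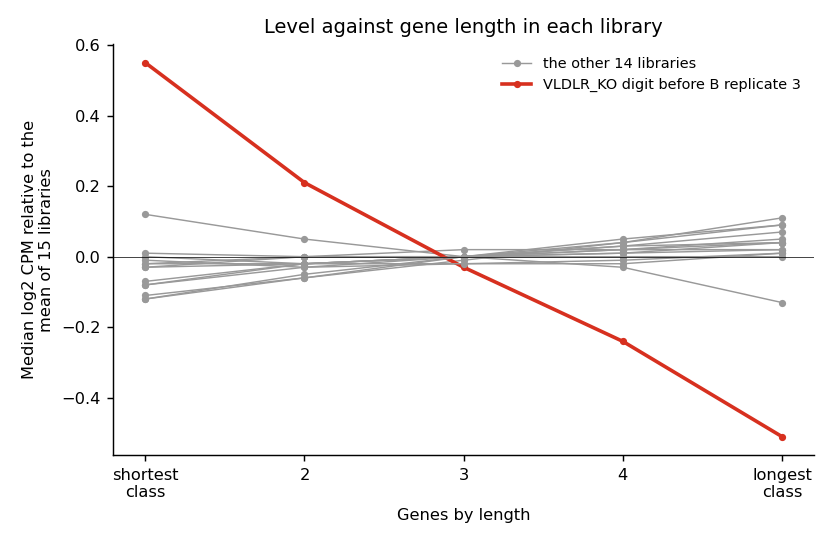
Median log2 level of genes in 5 classes of length (horizontal axis) relative to the mean of the 15 libraries (vertical axis, log2 CPM), with 1 line per library. VLDLR_KO before-B library 3 (red) runs from 0.55 in the shortest class to -0.51 in the longest, and the other 14 libraries (grey) stay near 0.

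The VLDLR effect differed between the forms for 1768 of 12198 genes (14.5%), called at a Benjamini-Hochberg adjusted p under 0.05 in edgeR's quasi-likelihood test. It was higher with the digit after B for 801 genes (6.57%) and lower for 967 (7.93%), and 913 of them differed at least 2-fold. Within the forms, VLDLR_KO differed from WT for 1631 genes (13.4%) in the after-B libraries, 725 higher (5.94%) and 906 lower (7.43%). In the before-B libraries it differed for 4044 genes (33.2%), 2144 higher (17.6%) and 1900 lower (15.6%). The median difference between forms over all genes was 0.01 on the log2 scale.

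The called genes divided by where the genotypes differed. For 1033 the VLDLR effect was called in the before-B libraries only, for 316 in the after-B libraries only, for 89 in both with the same sign, for 178 in both with opposite signs and for 152 in neither. Of the 630 genes called with the same sign in both forms, 89 had a called difference between the forms. Of the 178 genes with opposite signs, 135 were lower in VLDLR_KO after B and higher before B, and 43 showed the reverse.

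The counts depended on which libraries entered. Leaving out 1 library at a time gave 203 to 2470 higher and 382 to 2589 lower genes. The lowest counts came without WT after-B library 3 (203 and 382) or WT after-B library 1 (212 and 433), and the highest without VLDLR_KO before-B library 2 (2470 and 2589). Without WT before-B library 1 there were 414 and 628, without WT before-B library 2 there were 398 and 546, and without VLDLR_KO before-B library 3 there were 426 and 691. Without VLDLR_KO after-B library 1 the counts were 446 and 633, and without VLDLR_KO after-B library 3 they were 475 and 633. Called VLDLR effects within a form numbered 496 to 2550 after B and 1991 to 6227 before B when 1 library was left out. Without the 3 libraries that lacked Y-linked counts 105 higher and 194 lower genes were called. All 1768 genes kept their sign in each of the 19 alternative analyses that gave them a value. These analyses share most of their libraries, so this is no independent check. Of the 1768 genes 254 were called in every alternative, among them 110 of the 178 genes with opposite signs.

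**Figure D2:**
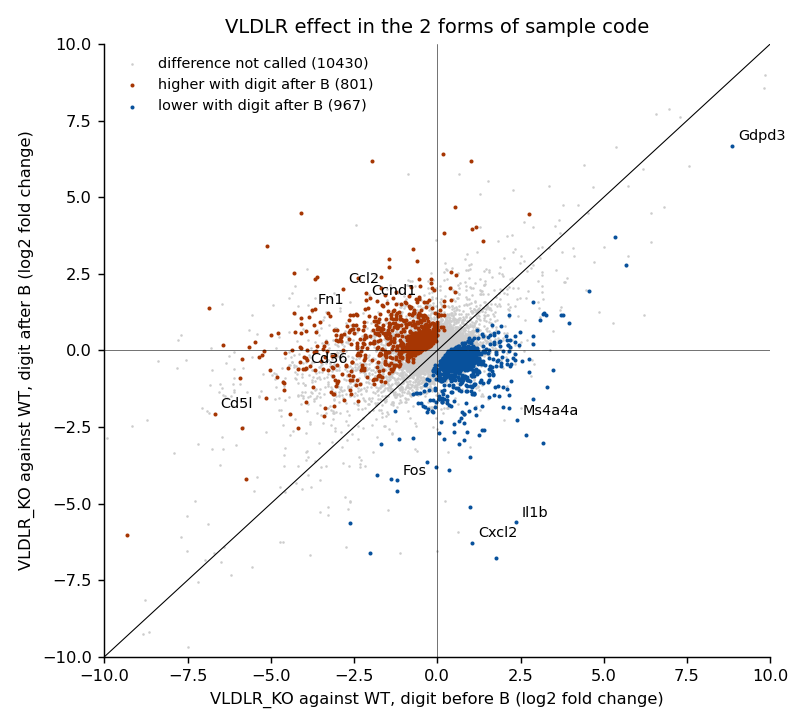
VLDLR_KO against WT log2 fold change of each gene in the before-B libraries (horizontal) and the after-B libraries (vertical). Genes with a called difference between forms are red (801, higher after B) or blue (967, lower after B), the diagonal marks equal effects, and 8 genes lie outside the axes.

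Inflammatory genes were the first group whose VLDLR effect differed with the form. Counts of list members, here and below, are read against the shares over all genes. These were 6.57% higher and 7.93% lower for the difference between forms, 5.94% and 7.43% after B, and 17.6% and 15.6% before B. Of 28 tested genes of a list of NF-kappaB targets and inflammatory mediators, 20 had a lower VLDLR effect after B and 2 a higher one, with a median difference of -2.12 on the log2 scale against 0.01 over all genes. In the after-B libraries 17 of the 28 were lower in VLDLR_KO and 2 higher, with a median of -1.23. In the before-B libraries 5 were lower, near the share over all genes, and 14 higher, with a median of 0.66. The mean log2 level of the list relative to the 15 libraries was 1.66 and 1.88 in the WT after-B libraries and at most 0.23 in every other library. The number lower was 17 without VLDLR_KO before-B library 3 and 14 without the 3 libraries that lacked Y-linked counts. In RNA from a whole culture, fewer cells of a type and less RNA per cell cannot be told apart.

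The stretches before the starts of these genes were searched for the kappaB element, the short sequence that NF-kappaB binds. Promoters were taken from RefSeq (GRCm38.p6), as the 250 bases before each gene start on the gene's strand, and the element was looked for on both strands as GGGA, any 2 bases and TTCC. Of the 20 inflammatory genes with a promoter in that table, 7 held it, against 1.36% of 27025 genes. The list names NF-kappaB targets and these 20 include genes without a call, so this share says nothing of the forms. The 3 below are shown because their genes had the largest differences or encode the inhibitor of the factor itself, with the match in capitals.
Cxcl1 (chr5:90890995-90891244, plus strand): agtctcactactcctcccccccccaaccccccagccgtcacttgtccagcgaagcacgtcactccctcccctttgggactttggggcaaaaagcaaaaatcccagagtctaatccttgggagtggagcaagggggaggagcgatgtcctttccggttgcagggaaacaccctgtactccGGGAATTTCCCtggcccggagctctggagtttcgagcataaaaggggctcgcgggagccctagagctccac
Cxcl2 (chr5:90903649-90903898, plus strand): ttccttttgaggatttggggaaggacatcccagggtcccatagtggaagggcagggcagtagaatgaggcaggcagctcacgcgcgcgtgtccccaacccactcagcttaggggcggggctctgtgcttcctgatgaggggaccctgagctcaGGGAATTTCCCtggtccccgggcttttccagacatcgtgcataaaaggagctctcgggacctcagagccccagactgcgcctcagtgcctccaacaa
Nfkbia (chr12:55492648-55492897, minus strand): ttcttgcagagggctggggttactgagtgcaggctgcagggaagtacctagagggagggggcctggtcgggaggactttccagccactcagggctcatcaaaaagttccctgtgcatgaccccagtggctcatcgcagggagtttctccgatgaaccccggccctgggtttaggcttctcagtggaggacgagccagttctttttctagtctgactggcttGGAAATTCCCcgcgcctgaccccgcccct
In Cxcl1 and Cxcl2 the capitals cover 2 overlapping matches, 1 on each strand and offset by 1 base. The matches lay 71 to 61 bases before the start of Cxcl1, 97 to 87 before that of Cxcl2 and 29 to 20 before that of Nfkbia. A match describes the letters and does not show binding.

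Il1b encodes the cytokine interleukin 1 beta and lies at chr2:129363842-129371170 on the minus strand (GRCm38.p6). It stood at 1.14, 0.845 and 1.81 CPM in the WT before-B libraries and 24 and 32.7 in the WT after-B libraries. In VLDLR_KO it stood at 7.03 and 6.06 CPM before B and 0.583, 0.613 and 0.531 after B. The 4 groups did not overlap, and the order of the genotypes turned over between the forms. VLDLR_KO was higher than WT by 2.37 before B (adjusted p = 6.39e-05) and lower by -5.61 after B (adjusted p = 9.1e-08), on the log2 scale, a difference between forms of -7.98 ± 0.41 (SE, adjusted p = 2.98e-07).

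Nfkbia, the inhibitor that holds NF-kappaB in the cytoplasm and is itself one of its targets, behaved alike. WT rose from 39.2, 33.6 and 44.3 CPM before B to 246 and 261 after B, whereas VLDLR_KO went from 83.8 and 123 down to 45.5, 34.7 and 45.9. The effect was 1.41 before B and -2.59 after B, and the difference between forms was -4.00 ± 0.24 (adjusted p = 1.33e-06). VLDLR_KO was above WT before B and below it after B, with no overlap in either form.

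The neutrophil-attracting chemokines Cxcl1 and Cxcl2 were low outside the WT after-B libraries. Cxcl2 stood at 128 and 182 CPM in those, and at 0.414, 0.739 and 0.851 in the WT before-B libraries. VLDLR_KO gave 1.47 and 1.31 CPM before B and 2.38, 1.23 and 2.33 after B. The difference between forms was -7.33 ± 0.48 (adjusted p = 1.94e-06). Cxcl1 had 18.5 and 30.6 CPM in the WT after-B libraries and at most 0.416 in the other 8, with a difference of -8.54 ± 1.24 (adjusted p = 0.00117) and no called effect before B (1.75, adjusted p = 0.181).

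Tnf, which encodes tumour necrosis factor, separated only the WT after-B libraries from the rest. These held 368 and 443 CPM, against 32, 30.3 and 37.9 in WT before B, 28.7 and 36.2 in VLDLR_KO before B and 38.1, 19.9 and 29 in VLDLR_KO after B. The VLDLR effect was -3.80 after B (adjusted p = 1.23e-07) and -0.04 before B (adjusted p = 0.891), a difference of -3.76 ± 0.29 (adjusted p = 9.71e-06). Socs3, a feedback inhibitor of cytokine receptors, had 29.7 and 33.4 CPM in WT after B and 0.743 to 4.81 in the other 8 libraries. Its difference was -6.08 ± 0.49 (adjusted p = 1.24e-05), with VLDLR_KO called higher before B (0.98) and lower after B (-5.10).

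Ptgs2, which encodes the inducible cyclooxygenase, was lower in VLDLR_KO in both forms. It stood at 4.61, 3.38 and 3.09 CPM in WT before B and 38.2 and 52.7 after B, against 0.708 and 0.475, and 1.22, 1 and 0.531, in VLDLR_KO. The difference between forms was -3.00 (adjusted p = 0.0349) and was called in 8 of the 19 alternative analyses.

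Ccl2 and Ccl7, chemokines that attract monocytes, were the 2 members of the list that moved the other way. Ccl2 stood at 12.5, 8.87 and 10.4 CPM in WT before B and 13.5 and 14.3 after B. VLDLR_KO held 1.36 and 1.6 before B and 84, 19.2 and 65 after B. WT was therefore alike in both forms and VLDLR_KO lay below it in one and above it in the other, without overlap. The effect was -2.83 before B and 2.01 after B, a difference of 4.84 ± 0.98 (adjusted p = 0.0077).

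Ccl7 lies in the same chemokine cluster and ran from 1.36 and 2.26 CPM in VLDLR_KO before B to 41.5, 8.2 and 28.1 after B, with WT at 13.2, 6.97 and 8.35 before B and 4.47 and 5.53 after B. Its difference was 4.77 ± 0.98 (adjusted p = 0.00838). In both chemokine genes VLDLR_KO after-B library 2 was the lowest of its 3. The call for Ccl2 was lost in limma voom (adjusted p = 0.0613) and that for Ccl7 held in all 19 alternative analyses.

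**Figure D3:**
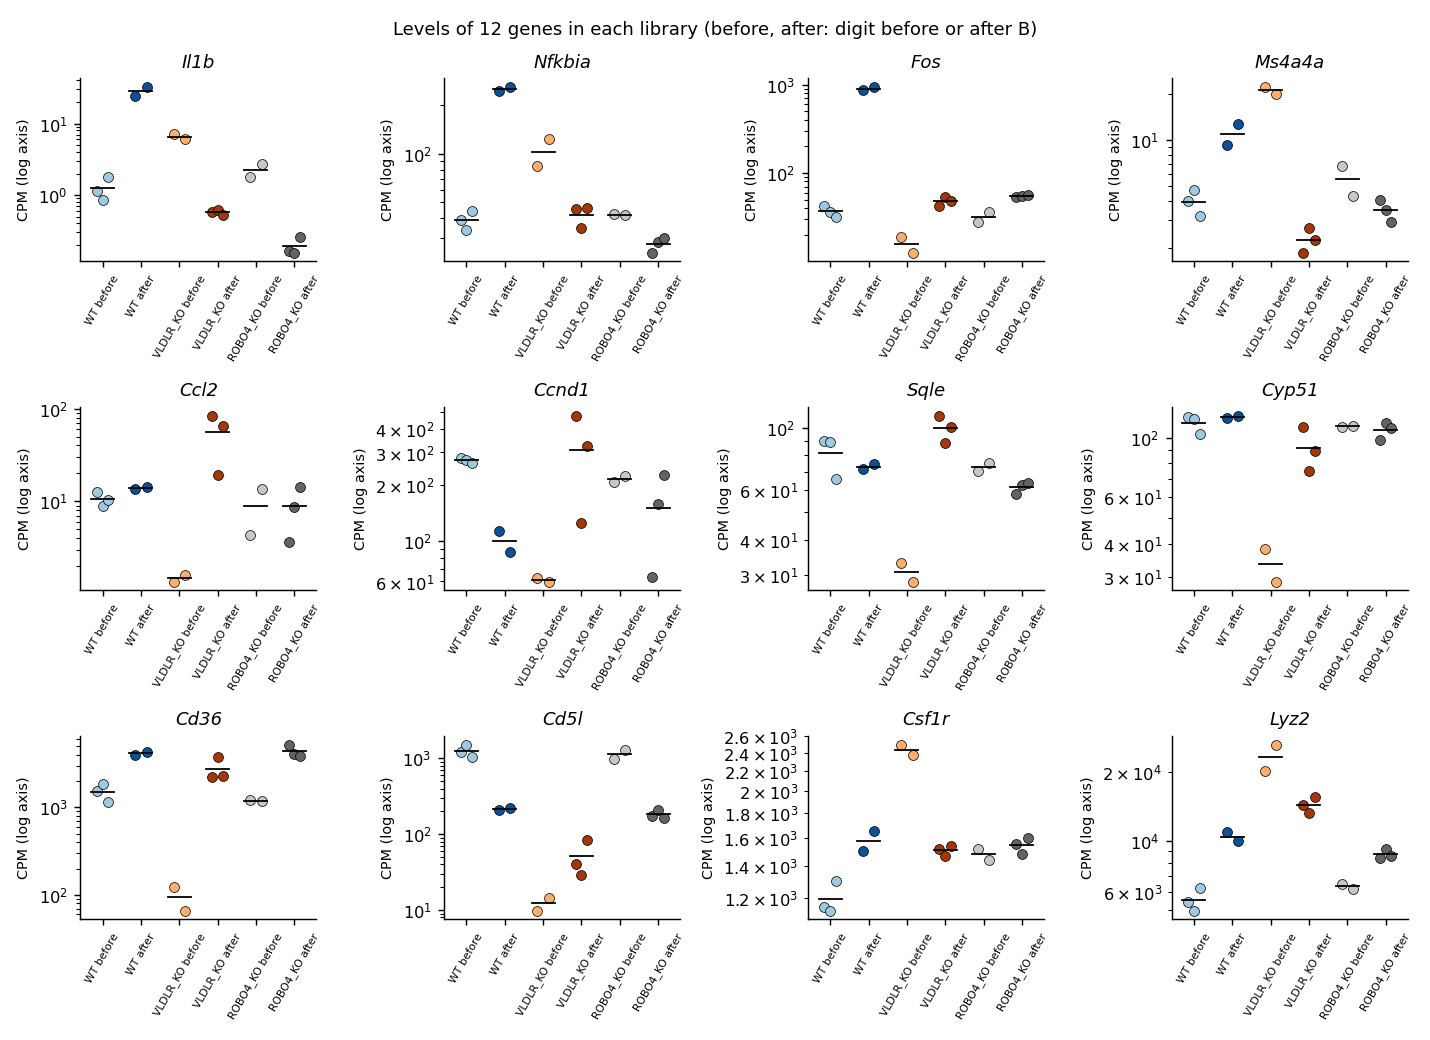
Levels of 12 genes in CPM (log axis) in each library, with genotypes and forms along the horizontal axis, 1 point per library and a bar at the mean. Il1b, Nfkbia and Fos are highest in WT after B, and Sqle, Cyp51, Cd36 and Cd5l are lowest in VLDLR_KO before B.

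Immediate-early genes formed a second group with high levels in the WT after-B libraries. Of 24 tested, 13 had a lower VLDLR effect after B and 1 a higher one, with a median difference of -1.22. VLDLR_KO was lower than WT for 17 and higher for 1 after B (median -1.81), and lower for 9 and higher for 4 before B (median -0.49). The 4 higher before B are near the share over all genes, 17.6%. The mean level of the list was 1.92 and 2.23 in the WT after-B libraries and at most 0.17 elsewhere. The number lower was 11 without VLDLR_KO before-B library 3 and 9 without the libraries that lacked Y-linked counts.

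Fos, which pairs with Jun proteins to form AP-1, stood at 856 and 944 CPM in WT after B and at 42.2, 35.8 and 32.1 in WT before B. VLDLR_KO held 19 and 12.5 CPM before B and 41.9, 53.1 and 48.2 after B. VLDLR_KO was below WT in both forms, by -1.22 before B and -4.24 after B, and the difference was -3.02 ± 0.24 (adjusted p = 1e-05). Fosb, its relative, reached 93.6 and 132 CPM in WT after B and at most 1.64 in the other 8 libraries. Its difference of -4.60 (adjusted p = 0.0211) was not called without VLDLR_KO before-B library 3 (adjusted p = 0.165).

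Junb, a partner of Fos in AP-1, and Ier2, an immediate-early nuclear protein, went the other way before B. Junb stood at 514 and 552 CPM in WT after B, 96.1, 81.9 and 95.5 in WT before B, 108 and 151 in VLDLR_KO before B and 67.1, 96 and 89 after B. Its effect was 0.50 before B and -2.66 after B, a difference of -3.17 ± 0.24 (adjusted p = 9.71e-06). For Ier2 the effects were 0.65 and -2.29 and the difference -2.94 ± 0.25 (adjusted p = 1.91e-05).

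Zfp36, which encodes the protein tristetraprolin that speeds the decay of cytokine mRNAs, rose with them. It held 971 and 1020 CPM in WT after B and 67.4 to 131 in the other 8 libraries, and the difference was -3.33 ± 0.16 (adjusted p = 2.47e-07). Btg2, an antiproliferative gene, had 270 and 318 CPM against 13.3 to 31.5 (-4.25 ± 0.37, adjusted p = 2.25e-05). Nr4a1, an orphan nuclear receptor, had 76.5 and 78.3 CPM against 1.36 to 3.85 (-3.38 ± 0.37, adjusted p = 0.000169). In all 3 genes the 2 WT after-B libraries lay far above the other 8, which is the shape of most of the list.

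The promoter of Btg2 is shown for the cAMP response element TGACGTCA, the palindrome bound by CREB and related factors, in capitals. It was held by 3 of 19 immediate-early genes in the table and by 1.77% of all genes. These 19 include genes without a call, so this share too says nothing of the forms.
Btg2 (chr1:134079156-134079405, minus strand): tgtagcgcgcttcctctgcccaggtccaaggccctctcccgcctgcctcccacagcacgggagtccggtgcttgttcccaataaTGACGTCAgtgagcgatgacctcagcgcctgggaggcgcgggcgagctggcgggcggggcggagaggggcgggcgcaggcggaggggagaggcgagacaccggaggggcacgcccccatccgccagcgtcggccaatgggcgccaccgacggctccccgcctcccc
The match began 166 bases before the gene start.

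Sterol genes showed the opposite layout, with VLDLR_KO before B as the group that stood apart. Of 26 tested genes of cholesterol synthesis and its SREBP2 control, 18 had a higher VLDLR effect after B and 22 had a value above 0, with a median difference of 0.98. In the before-B libraries 18 were lower in VLDLR_KO and 1 higher (median -1.02), and in the after-B libraries 1 was lower and 2 higher (median -0.02). The mean level of the list was -0.77 and -0.68 in the VLDLR_KO before-B libraries and 0.02 to 0.28 in the other 8. The number higher was 13 without VLDLR_KO before-B library 3, 18 after a correction for gene length, 10 without WT after-B library 1, and 7 without the 3 libraries that lacked Y-linked counts.

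Sqle, squalene epoxidase, a control point of the pathway, stood at 90.1, 89.5 and 66.1 CPM in WT before B and 71.3 and 74.3 after B. VLDLR_KO held 32.9 and 28.3 CPM before B and 111, 88.9 and 101 after B. VLDLR_KO was below WT before B (-1.42, adjusted p = 1.94e-05) and above it after B (0.46, adjusted p = 0.0405), without overlap in either form, and the difference was 1.88 ± 0.20 (adjusted p = 0.000146).

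Cyp51, the lanosterol demethylase, showed an effect of -1.77 before B, and its value of -0.39 after B did not pass the test. It stood at 38.1 and 28.8 CPM in VLDLR_KO before B and at 74.9 to 121 in the other 8 libraries, and the difference was 1.37 ± 0.22 (adjusted p = 0.00201). Msmo1, a sterol methyl oxidase that acts later in the pathway, had 128 and 112 CPM against 187 to 282, with a difference of 1.14 ± 0.15 (adjusted p = 0.000751). Sqle, Cyp51 and Msmo1 were called in all 19 alternative analyses. The other called members included Hmgcs1, an early enzyme of the pathway, and Srebf2, the gene of SREBP2.

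The sterol regulatory element was searched as TCACNCCAC and was held by 1.22% of all genes. Of the 20 sterol genes with a promoter in the table, 1 held it, Hmgcs1 (HMG-CoA synthase), which is printed for that reason with the match in capitals.
Hmgcs1 (chr13:119690101-119690350, plus strand): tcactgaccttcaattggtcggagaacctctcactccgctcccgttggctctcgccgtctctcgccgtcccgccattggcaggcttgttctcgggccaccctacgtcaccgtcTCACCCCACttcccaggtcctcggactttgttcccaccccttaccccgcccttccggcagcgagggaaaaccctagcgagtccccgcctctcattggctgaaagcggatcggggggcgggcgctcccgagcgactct
The other 19 lacked these exact letters in this window, which says nothing of the factor.

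Genes of fatty acid synthesis followed. The VLDLR effect was higher after B for 7 of 14 tested and lower for 1, with a median difference of 0.89. Before B 9 were lower in VLDLR_KO and 1 higher. The number higher was 2 without the libraries that lacked Y-linked counts. Fasn, fatty acid synthase, held 85.9 and 90.2 CPM in VLDLR_KO before B, 175, 158 and 131 in WT before B, 114 and 120 in WT after B and 181, 134 and 172 in VLDLR_KO after B. The difference was 1.28 ± 0.22 (adjusted p = 0.00292).

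Acaca, the carboxylase that makes the substrate of Fasn, had a difference of 1.16 ± 0.20 (adjusted p = 0.00305). Scd2, a desaturase, fell to 2.51 and 2.38 CPM in VLDLR_KO before B, against 18.4 to 143 in the other 8 libraries, with a difference of 3.44 (adjusted p = 0.00952). Me1, malic enzyme, differed in another way. Its genotype effect was called after B only (2.04), where WT was low at 2.07 and 2.22 CPM, and the difference was 2.19 (adjusted p = 0.00265). The calls for Scd2 and Me1 were lost without the libraries that lacked Y-linked counts (highest adjusted p over the alternatives 0.0721 and 0.0552).

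Among the genes of lipid uptake and efflux 5 of 22 had a higher VLDLR effect after B and 4 a lower one, against 6.57% and 7.93% over all genes. The called members went both ways, and the median was 0.05. Without the libraries that lacked Y-linked counts 2 were higher, and 2 were higher without WT after-B library 1 or 3. Cd36, a scavenger receptor for oxidised lipoproteins and fatty acids at chr5:17781690-17888959, had the largest positive difference of them. It stood at 1530, 1850 and 1140 CPM in WT before B and 4010 and 4320 after B. VLDLR_KO held 124 and 66.5 CPM before B and 2210, 3720 and 2310 after B.

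The 2 VLDLR_KO before-B libraries thus held the lowest Cd36 levels by a wide margin. The genotypes differed by -3.98 before B (adjusted p = 3.82e-06), the value after B was -0.60 (adjusted p = 0.171), and the difference was 3.38 ± 0.42 (adjusted p = 0.000369). Without VLDLR_KO before-B library 3 it was 3.01 (adjusted p = 0.00138).

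Msr1, the class A scavenger receptor, differed through the other form. It stood at 1050, 768 and 940 CPM in VLDLR_KO after B and at 292 to 411 in the other 8 libraries, with a difference of 1.17 ± 0.20 (adjusted p = 0.00326). Apoe, the ligand of the VLDL receptor, ran opposite to Cd36, at 13700 and 24900 CPM in VLDLR_KO before B and 4510 to 8030 in the other 8. Its difference was -2.09 ± 0.31 (adjusted p = 0.00136), and -1.59 (adjusted p = 0.00368) without VLDLR_KO before-B library 3, the library of 24900.

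Apoc2, the cofactor of lipoprotein lipase, had a difference of -3.21 (adjusted p = 0.00392). It held 45.3 and 77.1 CPM in VLDLR_KO before B and at most 19 elsewhere. The calls for Apoe and Apoc2 both missed the threshold without the libraries that lacked Y-linked counts (adjusted p = 0.0503 and 0.0504).

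**Figure D4:**
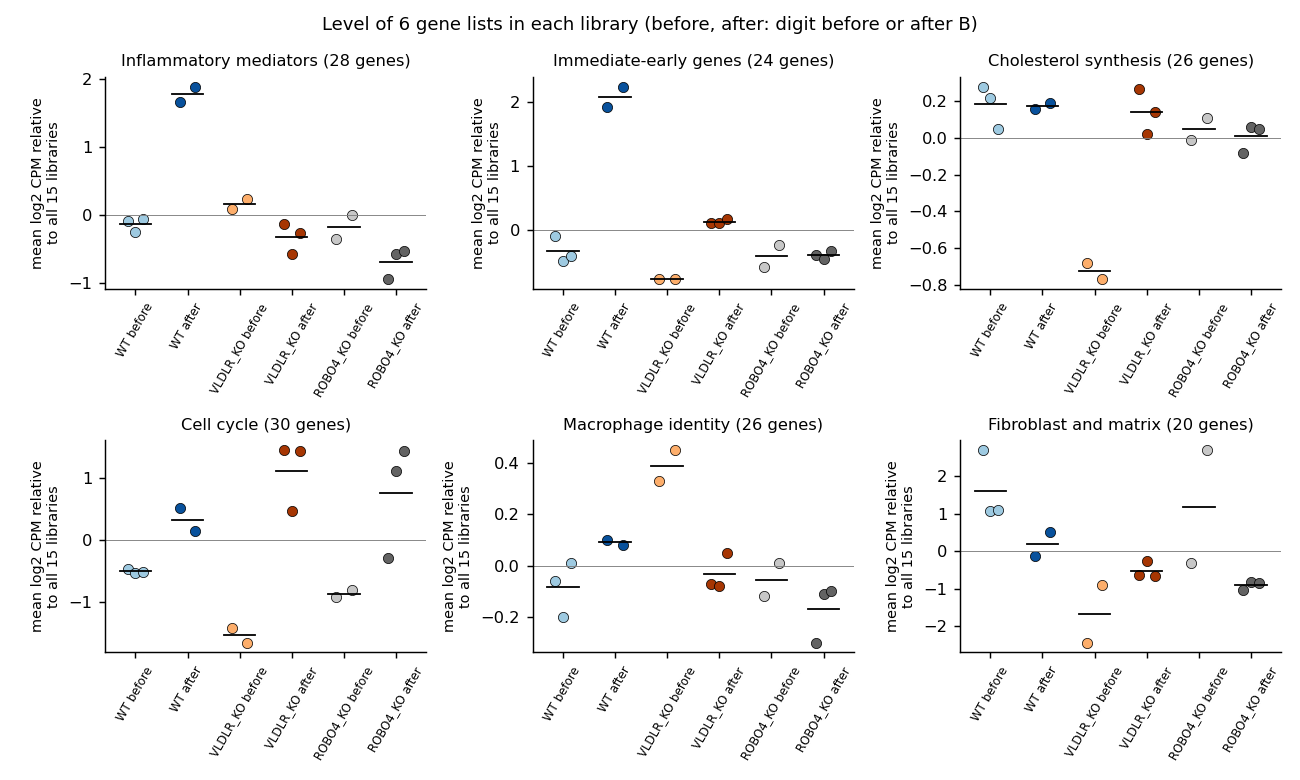
Mean log2 level of 6 gene lists in each library relative to all 15 libraries (vertical axis), with genotypes and forms along the horizontal axis, 1 point per library and a bar at the mean. Inflammatory mediators and immediate-early genes are high in WT after B (1.66 and 1.88, 1.92 and 2.23), and cholesterol synthesis is low in VLDLR_KO before B (-0.77 and -0.68).

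Macrophage identity genes were lower after B in their VLDLR effect for 11 of 26 and higher for 1, with a median difference of -0.56. The 1 higher was Fcgr4 (1.44, adjusted p = 0.00201). Before B 13 were higher in VLDLR_KO and 4 lower, the latter near the 15.6% over all genes, and after B 3 were higher and 6 lower. The number was 10 without VLDLR_KO before-B library 3, 7 without WT after-B library 1 or 3 and 4 without the libraries that lacked Y-linked counts. Csf1r held 2500 and 2380 CPM in VLDLR_KO before B, against 1150, 1130 and 1300 in WT before B, 1500 and 1650 in WT after B and 1520, 1470 and 1540 in VLDLR_KO after B. The difference of -1.10 ± 0.13 (adjusted p = 0.000241) came with an effect of 1.03 before B and a value of -0.07 after B that did not pass the test.

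Lyz2, which encodes the macrophage lysozyme, was higher in VLDLR_KO in both forms. It rose from 5420, 4970 and 6260 CPM in WT to 20300 and 26400 in VLDLR_KO before B, and from 10900 and 9980 to 14400, 13200 and 15600 after B. The effects were 2.07 and 0.47, and the difference was -1.61 ± 0.18 (adjusted p = 0.000233). Lyz1, its near copy, had a difference of -1.88 (adjusted p = 0.00102), but reads shared between the 2 genes may have been split by the counting, so that value is uncertain.

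Cd14, the co-receptor for bacterial lipopolysaccharide, was called in both forms with opposite signs. It stood at 179, 170 and 208 CPM in WT and 361 and 503 in VLDLR_KO before B, and at 394 and 407 against 273, 197 and 287 after B. The effect was 1.22 before B and -0.67 after B, a difference of -1.88 ± 0.26 (adjusted p = 0.000939). Irf8, a transcription factor of monocytes and dendritic cells, turned over in the same direction, at 0.53 and -0.63 (difference -1.17 ± 0.14, adjusted p = 0.000355).

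The C1q genes C1qa, C1qb and C1qc, which form the first component of complement, were also among the 11, and are named here after their values were seen. The lysosomal enzymes Gaa, Glb1 and Hexa were lower by -0.83, -0.77 and -0.75 (adjusted p = 0.00625, 0.00745 and 0.00858), out of 6 lower (0 to 11 over the alternatives) and 1 higher of 32 lysosomal genes. The 1 higher was Atp6v1h, a subunit of the proton pump (0.62, adjusted p = 0.0119). None of these 4 calls held without the libraries that lacked Y-linked counts.

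Ms4a4a, a membrane protein of macrophages, showed one of the clearest reversals. It stood at 4.04, 4.7 and 3.19 CPM in WT before B, 22.2 and 19.8 in VLDLR_KO before B, 9.22 and 12.7 in WT after B and 1.85, 2.68 and 2.23 in VLDLR_KO after B. The 4 groups did not overlap. The effect was 2.40 before B and -2.28 after B, a difference of -4.68 ± 0.34 (adjusted p = 5.93e-06).

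Cd5l, a secreted macrophage protein tied to lipid metabolism, fell in VLDLR_KO in both forms by different amounts. WT held 1210, 1520 and 1050 CPM before B and 206 and 220 after B, and VLDLR_KO 9.86 and 14.6 before B and 40.4, 29.4 and 83.1 after B. The effects were -6.69 and -2.06, so the difference was 4.62 ± 0.52 (adjusted p = 0.000199). Between the forms, WT was lower after B and VLDLR_KO higher.

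Trim30d, an interferon-induced gene of the Trim30 family, was near 0 in VLDLR_KO. It stood at 19.7 to 25.9 CPM in the 5 WT libraries, at 0.0545 and 0 in VLDLR_KO before B and at 0.212, 0.279 and 0.424 after B. The VLDLR_KO before-B level rests on single counts, so the fitted difference between forms has no interpretable size.

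Cell cycle genes had a higher VLDLR effect after B for 12 of 30, with a median difference of 1.91. VLDLR_KO was higher for 8 after B (median 0.69) and lower for 10 before B (median -1.08). The mean level of the list was -1.65 and -1.41 in the VLDLR_KO before-B libraries, -0.53 to -0.46 in WT before B, 0.14 and 0.52 in WT after B and 0.47 to 1.45 in VLDLR_KO after B. The number moved both ways. It was 23 in DESeq2, 22 with the 10 libraries alone and 23 without VLDLR_KO after-B library 2. It was 4 in limma voom, 3 without the libraries that lacked Y-linked counts, 2 without VLDLR_KO before-B library 3 or WT after-B library 3 and 4 without WT after-B library 1. It was 6 without WT before-B library 1 or 2, or VLDLR_KO after-B library 1 or 3.

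Pcna, the sliding clamp of DNA replication, and Ccnd1, cyclin D1, held in every alternative. Pcna stood at 277 and 273 CPM in VLDLR_KO before B and at 522 to 677 in the other 8 libraries, a difference of 1.33 ± 0.16 (adjusted p = 0.000328). Ccnd1 stood at 279, 274 and 262 CPM in WT before B, 62.3 and 59.9 in VLDLR_KO before B, 112 and 86.2 in WT after B and 475, 124 and 327 in VLDLR_KO after B. Its effect was -2.15 before B and 1.64 after B, a difference of 3.79 ± 0.72 (adjusted p = 0.00562).

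The replication and checkpoint genes were less stable. Mcm4, part of the replicative helicase, had a difference of 1.94 (adjusted p = 0.0141) and Ccne1, cyclin E1, of 2.46 (adjusted p = 0.018). Without VLDLR_KO before-B library 3 neither was called (adjusted p = 0.0552 and 0.0664). Dtl, a subunit of a ubiquitin ligase of S phase, Kntc1, a kinetochore protein, and Chek1, the checkpoint kinase, had differences of 3.73, 3.69 and 3.40 (adjusted p = 0.0201, 0.0176 and 0.0238). None of these 3 was called without that library either (adjusted p = 0.0782, 0.0743 and 0.0624).

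Id1, an inhibitor of basic helix-loop-helix factors that responds to BMP signals, was high in the VLDLR_KO after-B libraries. They held 39.5, 19 and 33.8 CPM, and the other 7 libraries 1.12 to 3.45. The difference was 4.16 ± 0.88 (adjusted p = 0.00988). It was not called without the libraries that lacked Y-linked counts (highest adjusted p over the alternatives 0.0699).

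Genes of fibroblasts and matrix were low in VLDLR_KO before B and uneven within the WT before-B libraries. Of 20 tested, 5 had a higher VLDLR effect after B, with a median difference of 3.13, and 15 were lower in VLDLR_KO before B. The mean level of the list was 1.06 to 2.69 in the WT before-B libraries, and -2.43 and -0.90 in the VLDLR_KO before-B libraries. The summed level was 271 to 924 CPM in the former and 20.3 to 78.7 in the latter, against 122 to 162 in WT after B and 129 to 385 in VLDLR_KO after B. Of the 21 genes of the list, 2 (Lum and Thy1) stayed under 1 CPM in all 10 libraries. The collagen genes Col1a1 and Col1a2 reached 51.4 and 84.3 CPM in WT before-B library 1, and Sparc, another matrix gene, 73.6. The part of such cells in the result was not tested. The 5 genes became 10 in DESeq2 and 8 with the 10 libraries alone. They became 1 in limma voom or without WT before-B library 1, and 3 without VLDLR_KO before-B library 2 or VLDLR_KO after-B library 1. None of the 20 was called higher without WT after-B library 1 or 3, or without the libraries that lacked Y-linked counts.

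Fn1, fibronectin, which monocytes also make, stood at 445, 118 and 142 CPM in WT before B, 5.99 and 28.8 in VLDLR_KO before B, 53.8 and 76.9 in WT after B and 69.4, 323 and 102 in VLDLR_KO after B. The difference was 5.09 (adjusted p = 0.0288) and was called in 13 of the 19 alternatives. Timp3, an inhibitor of metalloproteinases held in the matrix, was at 53.2, 12.1 and 22.5 CPM in WT before B and 0.654 and 2.73 in VLDLR_KO before B. Its difference of 4.22 (adjusted p = 0.0456) was called in 7. In both genes WT before-B library 1, one of the libraries without Y-linked counts, was the highest of the 10.

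Postn and Col5a2, a matricellular protein and a fibrillar collagen chain, had differences of 3.65 and 3.17 (adjusted p = 0.0241 and 0.0358). Fstl1, a secreted glycoprotein, and Nedd4, a ubiquitin ligase, had 3.70 and 3.76 (adjusted p = 0.0296 and 0.0251). None of the 6 genes held without the 3 libraries that lacked Y-linked counts. Vcam1 and Kitl, an adhesion molecule and the ligand of Kit, come from the list of stromal markers and did hold. Vcam1 stood at 2.94 and 3.09 CPM in VLDLR_KO before B and 15.9 to 53.6 in the other 8 libraries (3.02 ± 0.45, adjusted p = 0.00124).

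Kitl changed sign. It was at 33, 39.9 and 29.9 CPM in WT and 21.4 and 12.7 in VLDLR_KO before B, and at 14.6 and 15.9 against 28.7, 31.5 and 29.8 after B. The difference was 1.98 ± 0.28 (adjusted p = 0.000939).

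Most markers of other blood cells were low, and some varied between the groups. The summed level of 13 neutrophil genes was 1.6 to 2.01 CPM in WT before B, 2.79 to 3.32 in VLDLR_KO before B, 34.6 to 35.6 in WT after B and 16.4 to 21.6 in VLDLR_KO after B. In ROBO4_KO it was 0.959 to 1.19 before B and 29.3 to 34.4 after B, so it was high after B in each genotype, also in ROBO4_KO, where the inflammatory list was low (-0.95 to -0.54). Of the 13 genes 7 stayed under 1 CPM in the WT and VLDLR_KO libraries, among them the granule genes Mpo and Elane. Most of the sum in WT after B was Mmp8, a collagenase of neutrophil granules, at 25.9 and 27.1 CPM in WT after B and 1.01 to 1.58 in WT before B. The neutrophil genes Ngp, Ltf and S100a9 stood at 2.85 and 1.48, 0.894 and 1.25, and 2.12 and 1.37 CPM in WT after B, and at 0 to 0.0532 in WT before B. Of 7 B cell genes 6 stayed under 1 CPM, and the exception, Ebf1, reached 1.24. Of 6 T and NK cell genes 4 stayed under 1 CPM, among them the T cell receptor genes Cd3e and Cd3g. The exceptions were Klrb1c, at up to 1.34, and Cd4, at 16.4 to 54. Of 9 erythroid and megakaryocyte genes 7 stayed under 1 CPM. Those above it were Epor, at up to 2.13, and Pf4. In both genotypes Pf4 was higher after B, at 26.8 to 42.5 against 4.38 to 6.54 before B. Of 5 mast cell and basophil genes 3 stayed under 1 CPM. Gata2 reached 1.7, and Kit stood at 21.1 to 27.5 in WT before B and 0.558 to 4.25 in the other WT and VLDLR_KO libraries. Itgax, the integrin CD11c of dendritic cells and some macrophages, was higher in VLDLR_KO in both forms (3.19 and 1.18). Its difference was -2.0 (adjusted p = 0.00941), a call that was lost without the libraries that lacked Y-linked counts. Of 10 dendritic cell genes 6 stayed under 1 CPM, among them Flt3, Zbtb46 and Clec9a. The exceptions were Itgax, Irf8, at 131 to 315, Batf3, at up to 2.34, and Xcr1, at up to 1.11. The part of other cells in the results was not tested.

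Vegfa, the main growth factor of blood vessels, had a lower VLDLR effect after B. It stood at 36.8, 31.9 and 31.3 CPM in WT before B, 52.8 and 40.8 in VLDLR_KO before B, 81.5 and 117 in WT after B and 13.8, 22.3 and 20.6 in VLDLR_KO after B. The effect was -2.40 after B (adjusted p = 9.07e-06), the value before B was 0.49 (adjusted p = 0.0991), and the difference was -2.88 ± 0.31 (adjusted p = 0.000163). Of 26 angiogenic and antiangiogenic genes 3 were higher (0 to 5 over the alternatives) and 1 lower, which is near the share over all genes.

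Ndrg1, a gene raised by low oxygen, was alike in WT and VLDLR_KO before B, at 97, 101 and 108 CPM against 102 and 108. After B it stood at 98.3 and 106 CPM in WT and 34.2, 33.8 and 35.1 in VLDLR_KO. The difference was -1.62 ± 0.16 (adjusted p = 7.14e-05). Of the 26 genes of glycolysis and hypoxia 3 were higher (1 to 6 over the alternatives) and 2 lower, near the 6.57% and 7.93% over all genes.

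The smaller counts of the other lists are read against the 6.57% higher and 7.93% lower over all genes. Of 22 genes of heat shock and endoplasmic reticulum stress 5 were higher and 1 lower (median 0.18), and the 5 became 0 to 8 over the alternatives. Of 13 osteoclast genes 3 were higher (0 to 3 over the alternatives), among them the integrin Itgb3 (1.75, adjusted p = 0.00341) and the RANKL receptor Tnfrsf11a (0.77, adjusted p = 0.00967). Of 36 interferon-stimulated genes 2 were higher and 3 lower (0 to 5 over the alternatives), with Rsad2, an antiviral enzyme, at 1.20 (adjusted p = 0.0215) and the guanylate-binding protein Gbp5 at -2.37 (adjusted p = 0.0072). Of 15 genes of oxidative stress 3 were higher (1 to 5 over the alternatives) and 1 lower.

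Hmox1, heme oxygenase, and Nfe2l2, the gene of the factor NRF2 that drives it, went opposite ways. Hmox1 had an effect of -0.41 before B and 0.42 after B (difference 0.83 ± 0.14, adjusted p = 0.00282). Nfe2l2 had 0.50 before B and a value of -0.34 after B that did not pass the test (difference -0.84 ± 0.16, adjusted p = 0.00684). Txnrd1, thioredoxin reductase, had a difference of 0.87 (adjusted p = 0.0185). The calls for Itgb3, Tnfrsf11a, Rsad2, Gbp5, Txnrd1 and Nfe2l2 were lost without the libraries that lacked Y-linked counts, and that for Hmox1 held in all 19 alternatives.

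The study's title names Slc17a5 and QKI, the RNA-binding protein of the gene Qk. Neither gene had a called difference between forms. Qk stood at 235, 261 and 237 CPM in WT before B, 192 and 120 in VLDLR_KO before B, 280 and 304 in WT after B and 219, 216 and 188 in VLDLR_KO after B. It was lower in VLDLR_KO in both forms, by -0.65 before B (adjusted p = 0.00807) and -0.49 after B (adjusted p = 0.0473), and the difference was 0.15 ± 0.22 (adjusted p = 0.643).

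Slc17a5, the lysosomal sialic acid exporter, stood at 102 to 106 CPM in WT before B and 113 and 95.3 in VLDLR_KO before B, and at 81.1 and 88.6 against 75.9, 85.9 and 75.2 after B. Its difference was -0.10 ± 0.15 (adjusted p = 0.671). These are values of the gene and say nothing of a circular RNA made from it. Vldlr had a difference of 2.14 ± 1.37 (adjusted p = 0.285), from the few counts given above.

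The same difference can be read as the after-B against before-B change of each genotype. It was called for 1796 genes in WT (14.7%), 962 higher after B (7.89%) and 834 lower (6.84%). In VLDLR_KO it was called for 5681 (46.6%), 2747 higher (22.5%) and 2934 lower (24.1%). In ROBO4_KO it was called for 2015 (16.5%), 970 higher (7.95%) and 1045 lower (8.57%). Of the 1768 genes whose VLDLR effect differed between forms, the form difference was called in VLDLR_KO only for 1256, in WT only for 224, in both with the same sign for 130, in both with opposite signs for 113 and in neither for 45. Without VLDLR_KO before-B library 3 the count in VLDLR_KO was 3571, and without the libraries that lacked Y-linked counts 2458. In WT it was 562 to 1190 without WT after-B library 1 or 3 or WT before-B library 1 or 3, and 2611 without VLDLR_KO before-B library 2.

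ROBO4_KO has libraries in both forms and its form difference is set beside the other 2. Set against ROBO4_KO in place of WT, the form difference of VLDLR_KO was called different for 1031 genes (8.45%), 484 higher (3.97%) and 547 lower (4.48%). That of ROBO4_KO differed from that of WT for 47 (0.385%), 1 higher (0.0082%) and 46 lower (0.377%). These contrasts share libraries with the first and are no independent check of it. Of the cholesterol list, 18 of 26 were higher in VLDLR_KO against ROBO4_KO, with a median of 1.05, and the median of ROBO4_KO against WT was -0.03. Of the inflammatory list, 3 were higher and 5 lower in the former, and 9 of 28 were lower in the latter (median -1.24). Of the immediate-early list, 6 were higher and 1 lower in the former, and 13 of 24 were lower in the latter (median -2.35). Of the cell cycle list, 2 of 30 were higher in the former (median 0.81) and 0 were called in the latter (median 1.01). After B, 30 of these 30 genes were called higher than before B in VLDLR_KO, 24 in ROBO4_KO and 6 in WT.

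Single genes show both layouts. Sqle differed between forms by -0.17 in WT, -0.24 in ROBO4_KO and 1.71 in VLDLR_KO. Fos differed by 4.61 in WT, 0.77 in ROBO4_KO and 1.60 in VLDLR_KO. For Il1b the values were 4.48, -3.49 and -3.49, and for Cd5l -2.56, -2.64 and 2.06. In Sqle and Cd5l ROBO4_KO lay with WT, and in Fos and Il1b it lay with VLDLR_KO.

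**Figure D5:**
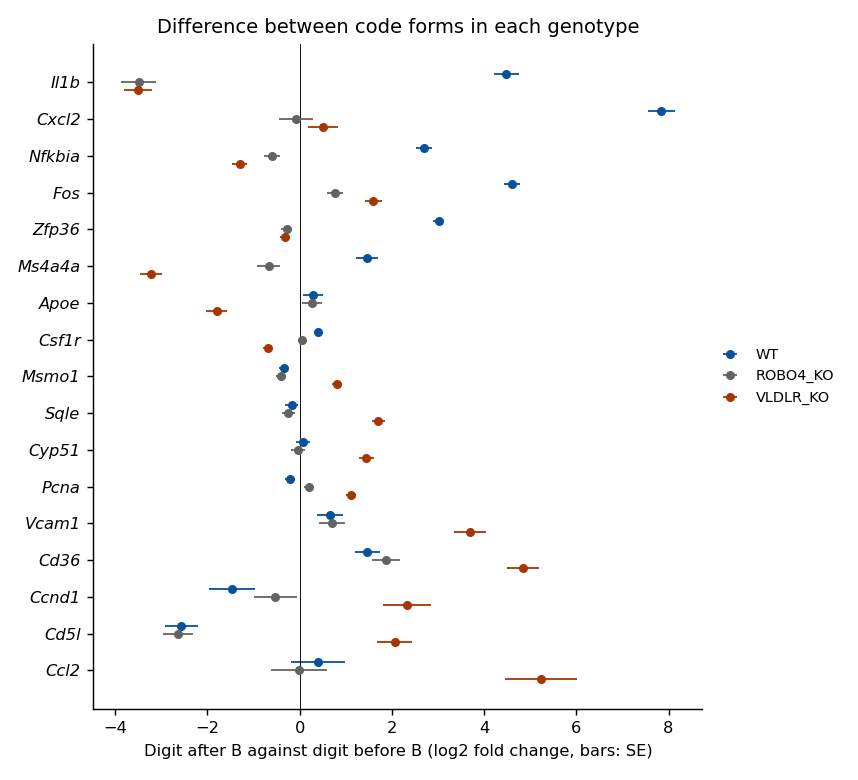
After-B against before-B log2 fold change (horizontal axis, bars are SE) of 17 genes in WT (blue), ROBO4_KO (grey) and VLDLR_KO (red). WT stands apart for Il1b to Zfp36, and VLDLR_KO for Apoe to Ccl2.

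The authors' deposited table holds a comparison of VLDLR_KO and WT within each form, with q-values under 0.05 for 2326 genes before B and 1903 after B. It gives no test of the difference between the forms.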

How the data were processed

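Total RNA libraries of 15 mouse macrophage cultures were grouped by genotype and by the form of the sample code. The authors aligned the reads and deposited an estimated count per gene and library, without normalization, per the file headers. Of these estimated counts 92.6% were whole, and all were rounded. The FPKM values deposited by the authors, with a unit inferred from the values, served only to derive gene lengths (count over FPKM, available for 95.1% of tested genes). The authors' log2 fold changes and DESeq2 q-values (p-values) were read as deposited. HISAT, Bowtie2 and GRCm38.p6 are named in the submitters' processing notes. The quantifier was not given in the sources used here.

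Genes were filtered with filterByExpr (12198 of 16886 kept), scaled by TMM and fitted in edgeR 4.0.16 (R 4.3.3) by the quasi-likelihood method with 6 groups of genotype and form. All 15 libraries entered, so ROBO4_KO shared the estimate of the spread. The SE values were derived from the test, as the absolute log2 value over the square root of its F statistic. Tests were two-sided, adjusted p-values under 0.05 (Benjamini-Hochberg) over all tested genes are calls, and levels are CPM on TMM-scaled totals. Alternatives used DESeq2 1.42.0, limma 3.58.1, other size factors, no filter, the 10 libraries alone, a replicate block and leaving out each library. After the data were seen, a length correction, the removal of the 3 libraries without Y-linked counts and a Y-linked covariate were added. The procedure was tested on simulated data.

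Named genes were, per class of within-form calls, the 6 with the largest difference among called genes with a mean of at least 10 CPM in a group, and up to 4 per list by the smallest p. The genotype and form groups, and the 29 lists of genes, were chosen with earlier results of these data known. Not all of the lists are described, and those that are described are given by counts, medians or levels. Intervals for counting error were not needed, since levels rest on replicate spread. Transcript counts and a second gene table were not used here.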

Additional observations from a re-analysis of the deposited data

Results flagged for a closer look

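The VLDLR effect was tested for a difference between the 2 forms of sample code, and every result below passed that test (edgeR, adjusted p under 0.05), which is why it is listed. All groups held 2 or 3 libraries, too few for a test of single samples within a group. The difference was called higher for 801 genes and lower for 967. Values are the VLDLR effect after B minus that before B on the log2 scale, not changes in level, and no explanation was tested.

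Inflammatory mediators gave -8.54 for Cxcl1, -7.98 for Il1b, -7.33 for Cxcl2, -6.08 for Socs3, -4.00 for Nfkbia, -3.76 for Tnf and -3.00 for Ptgs2, while Ccl2 and Ccl7 reached 4.84 and 4.77. Immediate-early genes gave -4.60 for Fosb, -4.25 for Btg2, -3.38 for Nr4a1, -3.33 for Zfp36, -3.17 for Junb, -3.02 for Fos and -2.94 for Ier2.

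Several enzymes of sterol and fatty acid synthesis had a higher VLDLR effect after B. They gave 1.88 for Sqle, 1.37 for Cyp51 and 1.14 for Msmo1, and 3.44 for Scd2, 2.19 for Me1, 1.28 for Fasn and 1.16 for Acaca. Lipid handling split, with 3.38 for Cd36 and 1.17 for Msr1 but -2.09 for Apoe and -3.21 for Apoc2.

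Several macrophage and dendritic cell genes had a lower VLDLR effect after B, at -4.68 for Ms4a4a, -2.0 for Itgax and -1.88 for both Cd14 and Lyz1. Lyz2 gave -1.61, Irf8 -1.17 and Csf1r -1.10. Cd5l and Fcgr4 had a higher effect, at 4.62 and 1.44. The lysosomal genes Gaa, Glb1 and Hexa gave -0.83, -0.77 and -0.75, and Atp6v1h 0.62. Cell cycle genes had a higher VLDLR effect after B, at 3.79 for Ccnd1, 3.73 for Dtl, 3.69 for Kntc1 and 3.40 for Chek1. Ccne1, Mcm4 and Pcna gave 2.46, 1.94 and 1.33, and Id1 and the ubiquitin ligase Nedd4 gave 4.16 and 3.76.

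Matrix and stromal genes gave 5.09 for Fn1, 4.22 for Timp3, 3.70 for Fstl1, 3.65 for Postn, 3.17 for Col5a2, 3.02 for Vcam1 and 1.98 for Kitl. Vegfa and Ndrg1 gave -2.88 and -1.62, and the osteoclast genes Itgb3 and Tnfrsf11a 1.75 and 0.77. Of the interferon genes, Rsad2 gave 1.20, Gbp5 -2.37 and Trim30d a fitted 3.32 that rests on single counts. Of the oxidative stress genes, Hmox1 gave 0.83, Txnrd1 0.87 and Nfe2l2 -0.84.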

How the results depend on the processing

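The direction of the difference held for all 1768 called genes in those of the 19 alternatives that gave them a value, but their number did not. Of the single genes' results, 2028 were scored as unchanged, 245 lost the call and 34 gained it. A reversed sign was scored only for genes called in the main analysis, and none of these reversed. For the other genes a changed sign was scored as unchanged. Called higher were 801 genes, 1236 in DESeq2, 1393 with the length correction, 105 without the 3 libraries that lacked Y-linked counts and 141 with a Y-linked covariate. Called lower were 967, 618 with the 10 libraries alone, 194 without those 3 libraries and 282 with the covariate. Leaving out 1 library gave 203 to 2470 higher and 382 to 2589 lower. VLDLR_KO against WT gave 496 to 2550 calls after B (all libraries 1631) and 1991 to 6227 before B (all libraries 4044). Without the 3 libraries these were 519 and 2321, and with the covariate the count after B was 817. With 1 library left out the form difference was called for 562 to 2611 genes in WT (all libraries 1796) and 3571 to 7068 in VLDLR_KO (all libraries 5681). Without the 3 libraries the counts were 1139 in WT and 2458 in VLDLR_KO. Without those 3 libraries the VLDLR_KO after-B group held library 3 alone. In each case the cause was not tested.

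With the replicate number as a block 326 genes were called higher and 562 lower. Deviations of same-numbered WT and VLDLR_KO libraries correlated at 0.126 and -0.077 after B and 0.311 and 0.235 before B. With so few libraries per group these values cannot decide whether the numbers pair the samples. The form differences have no blocked value, because the blocks lie within a form. Levels of a few CPM, as of Vldlr, rest on few counts. The trend with gene length in VLDLR_KO before-B library 3 carried over to the median difference, which ran from -0.28 in the shortest of 5 length classes to 0.20 in the longest, and from 0.07 to -0.02 without that library.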
